A study of Homo sapiens with 6 samples.

Results

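Taken by name from 60651 gene rows, 10 chemokine genes were examined: CXCL1, CXCL2, CXCL3, CXCL5, CXCL6, CXCL8, CXCL10, CCL2, CCL20 and CX3CL1. Chemokines are small secreted proteins that steer cells along a concentration gradient by binding receptors that couple to G proteins. CXCL1, CXCL2, CXCL3, CXCL5, CXCL6 and CXCL8 carry an ELR motif before their cysteines and draw neutrophils through CXCR2. CXCL10 acts on T cells through CXCR3, CCL2 on monocytes through CCR2, CCL20 on cells bearing CCR6, and the membrane-anchored CX3CL1 on cells bearing CX3CR1. Transcription of many chemokine genes is driven by NF-kB, and AU-rich elements in the 3′ ends of their mRNAs shorten the life of the message. In breast cancer cells, CXCL8 is among the best studied of these factors.

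The genes were measured by RNA sequencing of MDA-MB-231, an established line of human triple-negative breast cancer cells, labelled as wild type. Cells were kept for 24 h with DMSO, the solvent control, or with 75 or 150 µg/ml of AF-EAE. AF-EAE is the fraction of the plant Antenoron filiforme extracted with ethyl acetate, and its constituents were not analysed here. Each group held 2 libraries, numbered in the labels as biological replicates; no source used here says if the cultures were separate, so p-values measure only the spread between libraries.

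The libraries held 15621103 to 17113722 gene counts, and 3 reads in a library correspond to 0.174 to 0.196 CPM (TMM-scaled counts per 1e6). Replicate libraries were distinct, with a chi-square of 2.83 to 3.65 per degree of freedom between their counts. VIM, CD44, EGFR, KRT18, KRT8 and AXL, markers of the line, were abundant in every library, PGR and CDH1 were at 0 to 2 reads, and ESR1 averaged 0.129 to 0.849 CPM. ERBB2 was not low, at group means of 84.3 to 98.1 CPM, and EPCAM had group means of 3.88 to 5.27 CPM. Of 12 leukocyte markers, 10 had at most 3 reads in every library and PTPRC, CD3E, FCGR3A and S100A8 were among those with none. The summed leukocyte level was 0.315 and 0.262 CPM with DMSO, 0.489 and 0.601 CPM with 75 µg/ml, and 1.15 and 0.522 CPM with 150 µg/ml. In this bulk RNA, fewer cells of a kind and less RNA per cell cannot be told apart.

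The genes fell into 3 classes by level. CXCL8, CXCL1, CXCL2 and CXCL3 had 84 to 10596 reads in every library. CX3CL1 and CCL20 were at trace levels. CXCL6, CXCL10 and CCL2 had 0 reads in all 6 libraries and CXCL5 had 1 read, in a DMSO library. A count of 0 allows a level of up to 0.174 to 0.196 CPM, by library. The low-count filter kept 5 of the 10 genes, each with at least 12 reads in every library, so that CCL20, CXCL5, CXCL6, CXCL10 and CCL2 were not tested.

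All 6 ELR genes lie in 1 cluster on chromosome 4, with CXCL8 (ENSG00000169429.11) at chr4:73740506-73743716 and CXCL2 (ENSG00000081041.9) at chr4:74097035-74099293 (GRCh38, GENCODE 29). CXCL1 (ENSG00000163739.5) lies at chr4:73869393-73871242, CXCL3 (ENSG00000163734.4) at chr4:74036589-74038807, CXCL5 at chr4:73995642-73998779 and CXCL6 at chr4:73836497-73849064. CXCL10, further along the same chromosome, is at chr4:76021117-76023497. CCL20 is at chr2:227805739-227817564, CX3CL1 at chr16:57372458-57385048 and CCL2 at chr17:34255218-34257203. No annotated exon of another gene overlaps theirs, except for 4.31% of the exon bases of CXCL6. Between the CXCL8 and CXCL2 starts, 359 kb hold 16 annotated genes, of which 9 are protein-coding. CXCL6 and CXCL5, the genes with 0 reads and 1 read, sit among the expressed ones, 96 kb and 258 kb from the CXCL8 start. PF4, PPBP and PF4V1, platelet chemokine genes of the same cluster, were at 0 reads throughout for PPBP and PF4V1 and at 0 to 4 reads for PF4.

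The promoters of the 6 ELR genes, of which 4 were expressed and 2 were not, are shown. All 6 share an NF-kB type motif, and a link between motifs and levels was not tested. Each stretch is RefSeq sequence (GRCh38.p14) read 5′ to 3′ on the gene's strand. Capitals mark GGAATTTCC and, in CXCL8, the AP-1 type motif TGACTCA.
CXCL8, chr4:73740429-73740523, plus strand: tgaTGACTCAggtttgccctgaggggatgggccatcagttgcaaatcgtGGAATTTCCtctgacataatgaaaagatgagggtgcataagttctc
CXCL2, chr4:74099196-74099290, minus strand: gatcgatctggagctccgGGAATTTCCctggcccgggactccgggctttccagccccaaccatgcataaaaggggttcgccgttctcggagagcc
CXCL3, chr4:74038690-74038784, minus strand: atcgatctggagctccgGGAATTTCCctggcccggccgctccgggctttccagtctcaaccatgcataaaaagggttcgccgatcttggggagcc
CXCL1, chr4:73869298-73869392, plus strand: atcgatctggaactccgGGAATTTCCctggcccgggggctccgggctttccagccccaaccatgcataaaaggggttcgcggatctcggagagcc
CXCL5, chr4:73998678-73998777, minus strand: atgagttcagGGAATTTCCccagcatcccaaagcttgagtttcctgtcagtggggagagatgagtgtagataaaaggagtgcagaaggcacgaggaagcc
CXCL6, chr4:73836578-73836677, plus strand: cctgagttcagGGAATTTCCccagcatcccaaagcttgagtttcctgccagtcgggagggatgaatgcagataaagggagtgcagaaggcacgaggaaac

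RefSeq promoter windows, from 250 bases before to 50 after the start, were found for 8 of the 10 genes. Searched on both strands, GGAATTTCC was in 7 of these 8, the exception being CCL20, and in 0.461% of 35116 promoters. In CXCL10 it lay on the minus strand at -176 to -168. The windows of CXCL1, CXCL2 and CXCL3 were 71.9% to 82.5% identical to each other, and those of CXCL5 and CXCL6 83.1%. Matches in these related promoters are therefore not independent of each other. The AP-1 type motif TGANTCA was in CXCL8 and no other member's window, and in 7.71% of all promoters. An interferon-response type motif, GAAA then 2 free bases then GAAA, was in CXCL10 alone among the members and in 3.57% of all promoters. GGGACTTCC was searched as the NF-kB type motif of CXCL10, so its match there was fixed by that choice. It was in no other member's window and in 0.917% of all promoters. These motifs do not overlap one another in the members' windows. The matches describe letters and not bound sites, and GENCODE 29 has transcripts of CXCL2, CXCL3, CXCL5, CXCL6 and CXCL8 that begin further upstream.

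CXCL1, CXCL2 and CXCL3 are near copies of each other. Coding sequences were 93.5% identical between CXCL1 and CXCL2, 90.7% between CXCL1 and CXCL3 and 94.4% between CXCL2 and CXCL3. CXCL8 matched its relatives at 52.4% to 55.8%. Of the 50-base words in its annotated transcripts, CXCL2 shared 12.5% with another gene, CXCL3 6.01%, CXCL1 4.81% and CXCL8 0%. With 100-base words the shares were 5% for CXCL2, 3.27% for CXCL3 and 0% for CXCL1 and CXCL8. Read length and the handling of reads with several alignments were not stated, so levels of CXCL1, CXCL2 and CXCL3 are uncertain by what such reads add or remove.

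Among the ELR genes, CXCL8, CXCL2 and CXCL3 rose at both doses and rose further at 150 µg/ml, while CXCL1 was highest at 75 µg/ml. Of the 5 tested genes, 4 rose at 75 µg/ml against DMSO, where 38.6% of all tested genes passed the test in either direction, 19.2% higher and 19.4% lower. At 150 µg/ml against DMSO, 4 of 5 rose, against 51.5% of all genes in either direction, 25.8% higher and 25.7% lower. Between 150 and 75 µg/ml, 3 of 5 rose and 1 fell, against 22.0% of all genes in either direction, 9.51% higher and 12.5% lower. The p-values come from the quasi-likelihood F-test of edgeR, adjusted by Benjamini-Hochberg over all 15589 tested genes, with a threshold of 0.05. Median log2 fold changes of the 5 were 1.39 at 75 µg/ml, 2.30 at 150 µg/ml and 0.91 between doses, against 0.01, 0.03 and 0.00 over all genes. Both comparisons with DMSO share the DMSO libraries. The members, and the lists below, were chosen with earlier results of these data known. Setting them against all genes is therefore description only.

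**Figure D1:**
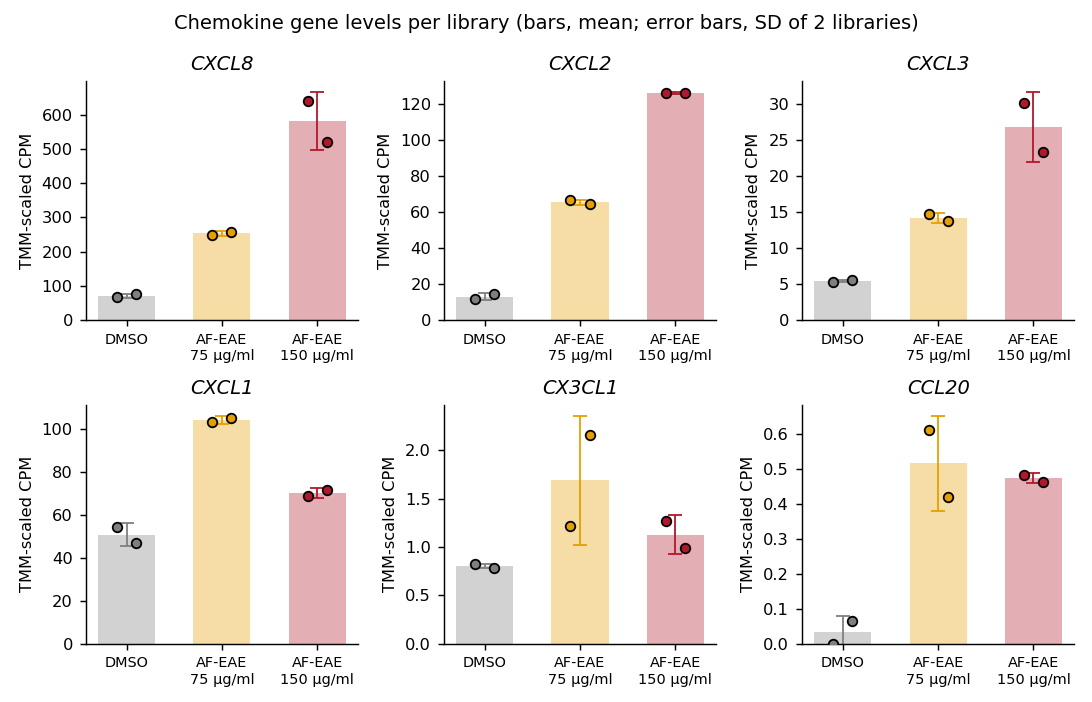
TMM-scaled CPM (linear vertical axes, scale differing by panel) of CXCL8, CXCL2, CXCL3, CXCL1, CX3CL1 and CCL20 in DMSO and at 75 and 150 µg/ml AF-EAE; points are libraries, bars means and error bars the SD of 2 libraries. CXCL8 climbed to a mean of 581 CPM at 150 µg/ml, while CXCL1 peaked at 104 CPM at 75 µg/ml.

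CXCL8, a strong neutrophil attractant, read 65.9 and 74.8 CPM with DMSO, 248 and 258 CPM at 75 µg/ml and 640 and 521 CPM at 150 µg/ml. No group's libraries overlapped another's. Its mean was 581 ± 84.4 CPM at 150 µg/ml and 70.3 ± 6.28 CPM in DMSO (SD, n = 2 each), an 8.26-fold rise with log2 fold change 3.05 (SE 0.0836, adjusted p = 2.3e-14). At 75 µg/ml the mean was 253 ± 6.92 CPM (SD, n = 2), and the log2 fold change against DMSO was 1.85 (SE 0.0836, adjusted p = 3.6e-11). At 150 against 75 µg/ml the rise was 2.3-fold (adjusted p = 1.1e-08). Ranked from the highest log2 fold change, CXCL8 stood at 105 of 15589 genes at 150 µg/ml.

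CXCL2, another neutrophil attractant, stood at 11.6 and 14.2 CPM with DMSO, 66.5 and 64.3 CPM at 75 µg/ml and 126 CPM in both libraries at 150 µg/ml. Again the groups did not overlap, and the 150 µg/ml libraries were nearly equal. Against DMSO, CXCL2 rose 9.77-fold at 150 µg/ml (log2 fold change 3.29, SE 0.0863, adjusted p = 1.5e-14) and 5.07-fold at 75 µg/ml (2.34, SE 0.0898, adjusted p = 4.7e-12). The step between doses was 1.92-fold (adjusted p = 7.7e-08). Of the tested members, it had the highest fold change at both doses, at rank 80 of 15589 genes at 150 µg/ml.

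CXCL3, nearest to CXCL2 in sequence, was lower in level, with 5.3 and 5.56 CPM with DMSO, 14.7 and 13.8 CPM at 75 µg/ml and 30.2 and 23.4 CPM at 150 µg/ml. No libraries of different groups overlapped. Against DMSO it rose 4.93-fold at 150 µg/ml (log2 fold change 2.30, SE 0.151, adjusted p = 9.2e-10) and 2.62-fold at 75 µg/ml (1.39, SE 0.159, adjusted p = 2.5e-06). Its step between doses was 0.91 on the log2 scale (SE 0.131, adjusted p = 8.8e-05).

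CXCL1, which is also known as a melanoma growth-stimulating factor, did not follow the other 3. It had 54.4 and 46.9 CPM with DMSO, 103 and 105 CPM at 75 µg/ml and 68.6 and 71.7 CPM at 150 µg/ml. The 150 µg/ml libraries lay between those of the other groups, without overlap. CXCL1 rose 2.05-fold at 75 µg/ml against DMSO (log2 fold change 1.04, SE 0.0731, adjusted p = 8.2e-09) and 1.39-fold at 150 µg/ml (0.47, SE 0.0748, adjusted p = 4.6e-05). Between the doses it fell by 0.57 on the log2 scale (SE 0.0704, adjusted p = 2.1e-05), to 70.2 ± 2.22 CPM at 150 µg/ml against 104 ± 1.85 CPM with 75 µg/ml (SD, n = 2 each). It was thus at rank 14666 of 15589 genes for the step between doses.

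**Figure D2:**
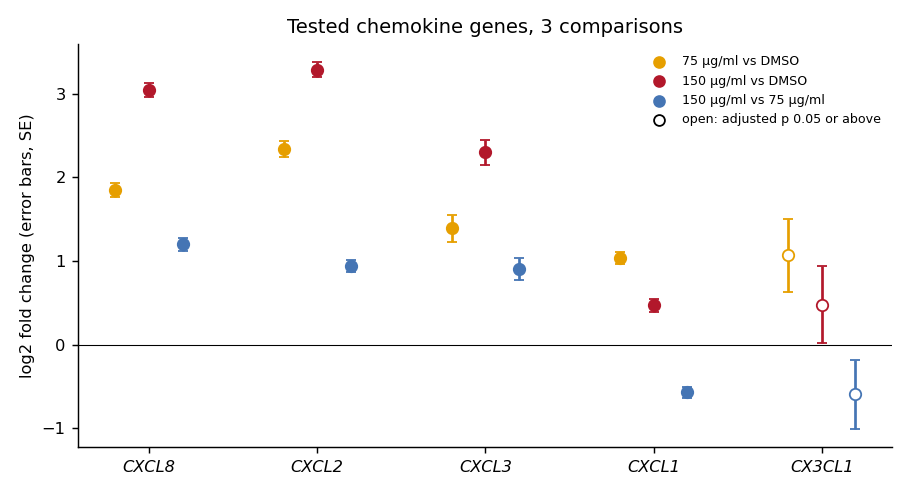
Log2 fold changes (vertical axis) of the 5 tested chemokine genes for 75 µg/ml against DMSO, 150 µg/ml against DMSO and 150 against 75 µg/ml; error bars are SEs and open points have an adjusted p of 0.05 or above. CXCL1 alone of the genes past the test is below 0 for the step between doses, at -0.57.

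CX3CL1, whose protein has a membrane-bound form that holds cells to the surface, had 0.82 and 0.786 CPM with DMSO, 1.22 and 2.16 CPM at 75 µg/ml and 1.27 and 0.987 CPM at 150 µg/ml. Libraries at 75 and 150 µg/ml overlapped, and both DMSO libraries were below them. None of its comparisons passed the test, with adjusted p = 0.0633 at 75 µg/ml (log2 fold change 1.07, SE 0.438), 0.4 at 150 µg/ml (0.48, SE 0.459) and 0.355 between doses (-0.59, SE 0.412). It had 12 to 36 reads per library. Scaled to total gene counts, CX3CL1 passed at 75 µg/ml (log2 fold change 1.20, adjusted p = 0.0372), and without replicate 1 of the 75 µg/ml libraries as well (1.41, adjusted p = 0.04). Without replicate 2 of that dose, its log2 fold change at 75 µg/ml was 0.60 (adjusted p = 0.499), and with DESeq2 the adjusted p was 0.187.

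CCL20, which draws cells bearing CCR6, had 0 and 1 reads in DMSO, 10 and 7 reads at 75 µg/ml and 8 in each library at 150 µg/ml. Every AF-EAE library had more reads than either DMSO library, and the AF-EAE libraries overlapped between doses. Depth-scaled reads at 150 µg/ml were 14.8 times those in DMSO (exact 95% counting interval 2.29 to 619, from 16 against 1 reads). At 75 µg/ml the ratio was 16 (2.51 to 670, from 17 against 1 reads), and between doses it was 0.92 (0.435 to 1.94). Fitted without the low-count filter, CCL20 passed at both doses (adjusted p = 0.00821 at 75 µg/ml and 0.0092 at 150 µg/ml). Without DMSO replicate 1 it did not, with adjusted p of 0.12 at 75 µg/ml and 0.113 at 150 µg/ml.

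CXCL10, an interferon-induced attractant of T cells, and CCL2, an attractant of monocytes, had no reads, and no change in them could be measured at this depth. CXCL5 and CXCL6, with coding sequences 87.4% identical to each other, were likewise without a measurable change.

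**Figure D3:**
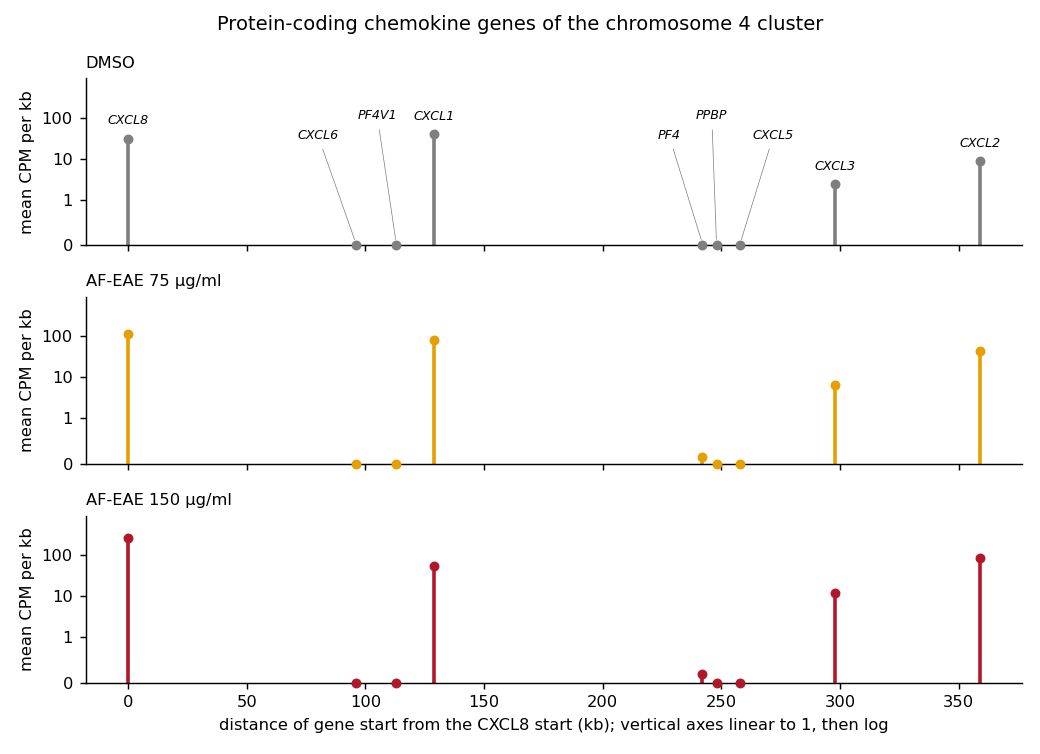
Mean CPM per kb of merged exon (vertical axes, linear to 1 and log above) of the protein-coding chemokine genes of the chromosome 4 cluster against distance from the CXCL8 start in kb, with a panel for DMSO, 75 and 150 µg/ml. CXCL8, CXCL1, CXCL3 and CXCL2 stand above their neighbours at 0, 129, 298 and 359 kb, and CXCL6, PF4V1, PPBP and CXCL5 lie at or near 0.

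Compared per length, as CPM per kb of merged exon, the order of the members changed with dose. In DMSO, CXCL1 was first at 39.1 ± 4.11 and CXCL8 next at 30.9 ± 2.76, and CXCL2 (8.6 ± 1.23) and CXCL3 (2.45 ± 0.0857) followed (SD, n = 2 each). At 75 µg/ml CXCL8 was at 111 ± 3.04, CXCL1 at 80.1 ± 1.43, CXCL2 at 43.6 ± 1.02 and CXCL3 at 6.42 ± 0.311. At 150 µg/ml CXCL8 was at 255 ± 37.1, CXCL2 at 83.9 ± 0.277, CXCL1 at 54.1 ± 1.72 and CXCL3 at 12.1 ± 2.18. Among these CXCL genes, libraries of neighbours in this order did not overlap. CXCL1 and CXCL8 in DMSO were the closest, at 42 and 36.2 for CXCL1 and 29 and 32.9 for CXCL8, and with longest-transcript lengths they overlapped, at 49.6 and 42.7 against 38.6 and 43.8. CX3CL1 and CCL20 were at 0.383 or less in every library and overlapped at 75 µg/ml, at 0.204 and 0.361 against 0.383 and 0.264. The ranks of these 6 genes were the same in 18 of 18 cases with longest-transcript lengths.

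The make-up of the 4 expressed CXCL transcripts differed by dose. CXCL8 made up 35.7% and 40.6% of their summed level per kb in DMSO, 45.6% and 46.5% at 75 µg/ml, and 65.1% and 60.5% with 150 µg/ml. CXCL1 made up 51.8% and 44.6% in DMSO, 33.1% and 33.3% at 75 µg/ml, and 12.2% and 14.6% with 150 µg/ml. The shares did not overlap between groups in either gene: that of CXCL8 was highest, and that of CXCL1 lowest, at 150 µg/ml.

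CXCL2 took 9.54% and 11.7% in DMSO, 18.5% and 17.6% at 75 µg/ml, and 19.5% and 22.1% with 150 µg/ml, and CXCL3 took 2.55% to 3.15% in all libraries. The summed level of the 4 was 137 and 141 CPM in the DMSO libraries, 432 and 441 CPM in those at 75 µg/ml and 865 and 742 CPM in those at 150 µg/ml. Reads of CXCL8 per read of CXCL1 were 9.34 and 7.26 at 150 µg/ml against 1.21 and 1.59 in DMSO, a difference of 2.57 in mean log2 ratio. Against the 2.42 and 2.45 at 75 µg/ml, the 150 µg/ml ratios differed by 1.76 on the same scale. With 2 libraries a group the exact two-sided permutation p was 0.333 for each of these, the smallest the design allows, with an adjusted p of 0.375 over 9 such comparisons.

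**Figure D4:**
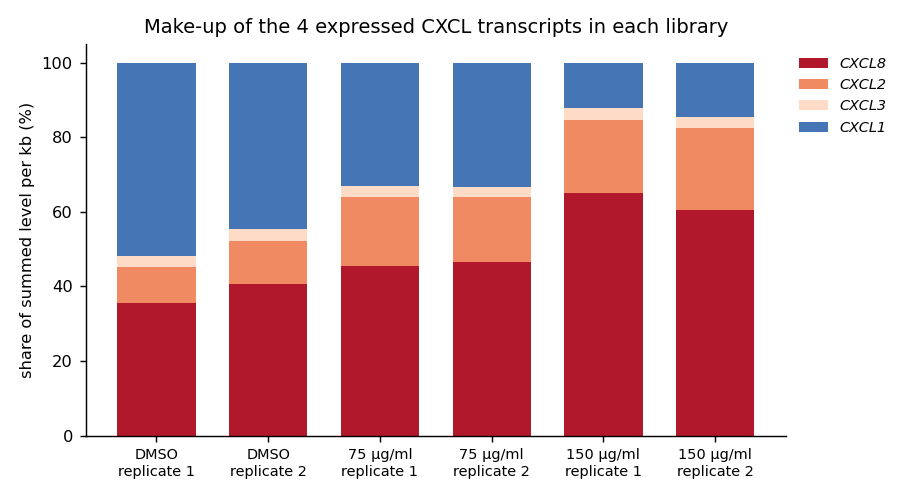
Share of the summed level per kb (vertical axis, percent) taken by CXCL8, CXCL2, CXCL3 and CXCL1 in each of the 6 libraries. The CXCL1 share is 44.6% or more in DMSO and 14.6% or less at 150 µg/ml, and the CXCL8 share is 60.5% or more at 150 µg/ml.

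The 3′ UTRs of the 4 expressed CXCL mRNAs, taken from GENCODE 29 transcripts, hold AU-rich letters of the kind that decay factors bind. Shown for each is the window of 27 bases round the TTATTTATT with the most ATTTA near it, each ATTTA in capitals. The windows were picked for these motifs and hold only part of each gene's ATTTA.
CXCL8: tgtaaagtattATTTAtttgaatctac
CXCL2: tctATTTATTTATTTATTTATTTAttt
CXCL3: tgtcagttgttATTTAttcaaattatc
CXCL1: gtcttctATTTATTTATTTAttcatta

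CXCL2 had 10 ATTTA in a 3′ UTR of 721 bases, a count that 0% of 1354 other tested genes with a 3′ UTR within 20% of that length reached. CXCL8 had 9 in 1252 bases, CXCL3 had 7 in 673 bases and CXCL1 had 5 in 706 bases, counts reached by 2.75%, 0.689% and 5.7% of 3′ UTRs of like length. The nonamer TTATTTATT was in all 4 and in CX3CL1, and not in CXCL5, CXCL6, CXCL10, CCL2 or CCL20. Between 4.21% and 6.54% of 3′ UTRs like those of the 4 hold it. CXCL5 had 11 ATTTA in 1995 bases and CXCL6 had 6 in 1119 bases, and neither was expressed.

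Of 36 other chemokine genes, 25 had no reads and 30 had at most 3 in any library. Only CXCL16 and CCL28 were tested. CXCL16, a membrane-anchored ligand of CXCR6, was at 0.736 ± 0.207 CPM with DMSO, 1.03 ± 0.184 CPM at 75 µg/ml and 1.69 ± 0.0774 CPM with 150 µg/ml (SD, n = 2 each). It rose at 150 µg/ml (log2 fold change 1.19, adjusted p = 0.0272), a call lost with DESeq2 (adjusted p = 0.117) and without DMSO replicate 2 or either 150 µg/ml library (adjusted p = 0.0811 to 0.168). CCL28, a mucosal chemokine, averaged 4.8 CPM with DMSO, 5.24 CPM at 75 µg/ml and 4.74 CPM at 150 µg/ml and did not pass.

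Chemokine receptors were scarce: 9 of 23 had no reads, 15 had at most 3 in any library and 4 were tested. CXCR1 and CXCR3 had no reads, and CXCR2, the receptor of the ELR chemokines, had 1 read in each of 2 libraries. CCRL2, a receptor that presents chemerin rather than signalling, read 25.5 ± 2.27 CPM under DMSO, 34.4 ± 3.42 CPM at 75 µg/ml and 30.9 ± 1.67 CPM with 150 µg/ml (SD, n = 2 each). It rose at 75 µg/ml (log2 fold change 0.43, adjusted p = 0.00283) and at 150 µg/ml (0.28, adjusted p = 0.0312). The call at 150 µg/ml was lost with DESeq2 (adjusted p = 0.109), without DMSO replicate 1 (0.241) and without replicate 2 at 150 µg/ml (0.187), and that at 75 µg/ml without replicate 1 of that dose (0.0622). CCR10, a receptor of CCL27 and CCL28, averaged 1.04 CPM at 150 µg/ml and 0.355 CPM in DMSO. Its call at 150 µg/ml (log2 fold change 1.53, adjusted p = 0.0278) was lost with DESeq2 (adjusted p = 0.138) and on leaving out any single library of these groups (0.0542 to 0.219). ACKR4 and CXCR6, an atypical receptor and the CXCL16 receptor, were at trace levels and passed in no comparison. The median log2 fold change of the 4 was 0.17 at 75 µg/ml and 0.58 at 150 µg/ml.

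Among 22 upstream cytokines and receptors, 17 were tested. At 75 µg/ml, 9 rose and 1 fell (TRAF2), with a median log2 fold change of 0.44, and at 150 µg/ml 10 rose and 2 fell (TNFRSF1A and TRAF2), with a median of 0.40. Over all genes, 19.2% were higher and 19.4% lower at 75 µg/ml (median 0.01), and 25.8% higher and 25.7% lower at 150 µg/ml (median 0.03). IL1B, encoding interleukin-1 beta, was at 15 ± 3.94 CPM with DMSO, 90 ± 2.95 CPM at 75 µg/ml and 144 ± 3.97 CPM with 150 µg/ml (SD, n = 2 each), and its log2 fold change against DMSO was 2.59 at 75 µg/ml and 3.26 at 150 µg/ml. IL1A, encoding interleukin-1 alpha, was at 30 ± 4.21, 95.7 ± 1.74 and 158 ± 13.4 CPM in the same order (log2 fold changes 1.68 and 2.40). IL6, encoding interleukin-6, was at 5.56 ± 0.466, 19.9 ± 0.227 and 23.8 ± 2.81 CPM (1.84 and 2.09). IL1RAP, the accessory chain of the interleukin-1 receptor, rose by less, with log2 fold changes of 0.44 and 0.69. TNF, IL17A, IFNG and IFNB1, the genes of classical inducers, had no reads in any library.

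The list of 15 NF-kB genes, all tested, held subunits, inhibitors and the genes of the activating IKK kinase complex. Of the 15, 8 rose and 1 fell at 75 µg/ml and 9 rose and 1 fell at 150 µg/ml, with medians of 0.39 and 0.29. The shares over all genes were 19.2% higher and 19.4% lower at 75 µg/ml and 25.8% higher and 25.7% lower at 150 µg/ml. Scaled to total gene counts, none was lower and the medians were 0.52 and 0.48, against 0.14 and 0.22 over all genes. NFKB1 was the lower gene at both doses. RELB, a subunit of the non-canonical pathway, averaged 10.5 ± 0.417 CPM with DMSO, 21.2 ± 0.989 CPM at 75 µg/ml and 34.8 ± 1.37 CPM with 150 µg/ml (SD, n = 2 each). NFKB2, its partner, was at 93.4 ± 5.86, 138 ± 2.38 and 192 ± 6.41 CPM in the same order. NFKBIZ, a nuclear cofactor, was at 101 ± 7.16, 165 ± 32 and 206 ± 17.7 CPM. Each of these 3 rose at both doses, with log2 fold changes against DMSO at 150 µg/ml of 1.73, 1.04 and 1.02, and RELA rose at 150 µg/ml by 0.29. NFKBIA, the inhibitor, was chosen after its values were seen: its libraries read 93.7 and 87.1 CPM with DMSO, 140 and 120 CPM at 75 µg/ml and 74.8 and 98.9 CPM at 150 µg/ml.

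Among 12 mRNA decay factors, 3 rose and 6 fell at 75 µg/ml (median -0.20) and 4 rose and 6 fell at 150 µg/ml (median -0.14). The all-gene medians were 0.01 and 0.03. Scaled to total gene counts, the list median at 150 µg/ml was 0.05, against 0.22 over all genes. The higher counts were near the all-gene shares of 19.2% and 25.8%, beside 19.4% and 25.7% lower. HNRNPD and KHSRP, which bind AU-rich elements and favour decay, fell by 0.86 and 0.52 on the log2 scale at 150 µg/ml, and ELAVL1, which stabilises such messages, fell by 0.75. ZFP36, a further AU-rich element decay factor, chosen after its values were seen, averaged 11.1 ± 2.61 CPM with DMSO, 15 ± 0.184 CPM at 75 µg/ml and 19.4 ± 0.577 CPM with 150 µg/ml (SD, n = 2 each). It rose by 0.81 on the log2 scale at 150 µg/ml (adjusted p = 1.3e-04), and by 0.58 without DMSO replicate 2. At 75 µg/ml ZFP36 rose by 0.43 (adjusted p = 0.0264), a call lost with DESeq2 (adjusted p = 0.0776). That call was also lost without DMSO replicate 2 (log2 fold change 0.21) or either library of that dose (0.41 and 0.44). The other ZFP36 genes of the list went different ways. ZFP36L2 fell at both doses (log2 fold changes -0.42 and -0.63), from a mean of 41.8 CPM with DMSO to 27 CPM at 150 µg/ml. ZFP36L1 passed only at 150 µg/ml (0.18). ZC3H12A, an endoribonuclease that cuts cytokine messages, rose by 1.16 at 75 µg/ml and 0.91 at 150 µg/ml. In DMSO it averaged 30.7 ± 2.63 CPM, at 75 µg/ml 68.5 ± 2.16 CPM and at 150 µg/ml 57.8 ± 4.84 CPM (SD, n = 2 each), a level highest at 75 µg/ml. Whether any of these changes bears on the CXCL levels was not tested.

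Of 14 chemokine-processing genes, 11 were tested, and 4 rose and 4 fell at each dose (medians 0.28 and 0.26), where 38.6% of all genes passed at 75 µg/ml and 51.5% at 150 µg/ml. ADAM17, a sheddase, averaged 75.1 CPM with DMSO, 112 CPM at 75 µg/ml and 140 CPM at 150 µg/ml (log2 fold changes 0.58 and 0.90). CTSL and MMP14, proteases known to cut some chemokines, rose by 1.40 and 0.83 at 150 µg/ml, and CTSC, which activates neutrophil proteases, fell by 0.80. MMP1 rose as well, and ADAM10, SDC1 and SDC4 fell. ADAM10 averaged 317 CPM with DMSO, 251 CPM at 75 µg/ml and 194 CPM at 150 µg/ml (log2 fold changes -0.34 and -0.71). Between 150 and 75 µg/ml, 2 of 11 processing genes rose and 3 fell, 5 of 15 NF-kB genes rose and 2 fell, 3 of 17 upstream genes rose and 1 fell, and 1 of 12 decay factors rose and 4 fell. All genes gave 9.51% higher and 12.5% lower in that comparison.

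**Figure D5:**
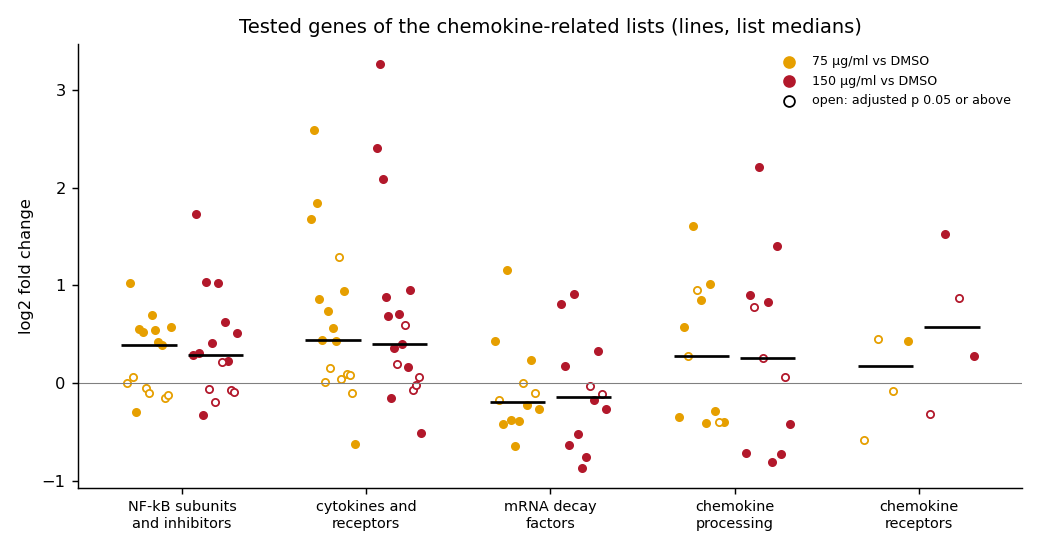
Log2 fold changes (vertical axis) of the tested genes in 5 chemokine-related lists at 75 and 150 µg/ml against DMSO; filled points passed the test at an adjusted p of 0.05, open points did not, and lines are list medians. IL1B, at 2.59 and 3.26, is the highest point of both sets.

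Members and genes without a symbol were left out of a search for genes whose log2 CPM over the 6 libraries resembled that of CXCL8. The closest were EREG (Pearson r 0.9996), TTPAL (0.999), TRIB3 (0.9989), ISG15 (0.9989) and TPMT (0.9988). With the genes left out included, 9513 had a mean of 10 CPM or more, the level required. These 6 libraries form 3 dose groups, so r mostly describes the order and spacing of group levels. EREG, encoding the EGF-family ligand epiregulin, lies on the same chromosome as CXCL8, 266 kb beyond the end of CXCL2. It averaged 15.4 ± 1.55 CPM with DMSO, 64.4 ± 0.795 CPM at 75 µg/ml and 154 ± 16.6 CPM with 150 µg/ml (SD, n = 2 each). TRIB3, encoding a stress-induced pseudokinase, averaged 48.1 CPM with DMSO, 130 CPM at 75 µg/ml and 241 CPM at 150 µg/ml. ISG15, an interferon-induced ubiquitin-like modifier, averaged 31.3 CPM with DMSO, 56.5 CPM at 75 µg/ml and 84.6 CPM at 150 µg/ml.

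The markers of the line moved with the treatment as well. Of 11, 9 were tested, with 2 higher and 6 lower at 75 µg/ml and 1 higher and 6 lower at 150 µg/ml. The all-gene shares were 19.2% higher and 19.4% lower at 75 µg/ml and 25.8% higher and 25.7% lower at 150 µg/ml. VIM, CD44, EGFR, KRT18, KRT8 and AXL fell at both doses. ESR1, at 2 reads in each DMSO library and 9 to 15 in the others, was higher at 75 µg/ml (adjusted p = 0.00563) and at 150 µg/ml (0.0136). Without DMSO replicate 1 neither call held (adjusted p = 0.053 at 75 µg/ml and 0.0875 at 150 µg/ml), and that at 150 µg/ml was also lost without DMSO replicate 2 (0.0759) or replicate 1 of that dose (0.111). ERBB2 was higher at 75 µg/ml (log2 fold change 0.20, adjusted p = 0.0139), a call lost with DESeq2 (adjusted p = 0.0577). That call was also lost without DMSO replicate 1 (log2 fold change 0.20) or either library of that dose (0.21 and 0.18). The list's summed level was 4306 and 4128 CPM under DMSO, 3148 and 3088 CPM under 75 µg/ml and 2458 and 2484 CPM under 150 µg/ml. Their part in the chemokine values was not tested. Of 11 fibroblast and endothelial markers, 6 were tested. At 75 µg/ml 2 rose (VWF and PDGFRB), where 19.2% of all genes were higher. At 150 µg/ml 1 fell (KDR), where 25.7% of all genes were lower. DCN had no reads, and the summed level was 24.9 to 33.5 CPM in all libraries.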

How the data were processed

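Libraries of MDA-MB-231 RNA were grouped by the treatment label. Total RNA went into a NEBNext Ultra RNA preparation, per the labels' protocols. Each deposited file from the authors holds unnormalized read counts by gene (60651 gene rows, plus 5 summary rows). HISAT2 2.2.1, HTSeq 2.0.2 and build hg38 are named, per the submitters' processing notes. No source used here states the annotation release, read length, strand setting or treatment of multiply aligned reads. Summary rows were left out of library sizes: reads outside genes were 6.32% to 7.98% and reads ambiguous between genes 10.95% to 11.48% of the counts.

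Testing used edgeR 4.0.16 under R 4.3.3 (TMM, default low-count filter by group, quasi-likelihood F-test, Benjamini-Hochberg adjustment at 0.05) in 1 fit of all 6 libraries. The fit covered 15589 genes and left out 45062, and its biological coefficient of variation was 5.08%. Intervals and the floor of 3 reads cover counting error only. Per-kb levels, transcripts and coordinates used GENCODE 29, and 58405 rows matched by identifier without the version. The edgeR test was also run on simulated counts for 150 µg/ml against DMSO. That simulation gave all genes the same dispersion and changed far fewer genes than were called here. It therefore does not check the p-values of these data.

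The members and the lists were chosen with earlier results of these data known. Named genes are all members and the up to 4 genes with the smallest p at 150 µg/ml against DMSO in each of 6 lists. Also named by rule are the 5 genes outside the members, with a mean of 10 CPM or more, most correlated with CXCL8. Outside that rule are genes named as the few that moved in a list, line and cell type markers, NFKBIA, PF4, PPBP and PF4V1. ZFP36, ZFP36L1 and ZFP36L2 also fall outside it. All of these were picked with their values in view or to check the samples. Alternatives were DESeq2 size factors, total counts, no filter, 5 CPM in 2 libraries, DESeq2 1.42.0, limma-voom (limma 3.58.1), only the groups compared, a replicate block, each library left out, and an adjusted p under 0.01.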

Additional observations from a re-analysis of the deposited data

How the results depend on the processing

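Over 221 alternative values for the tested chemokine genes, 219 kept their direction and side of the threshold, none was lost or reversed, and 2 newly passed, both CX3CL1 at 75 µg/ml as given above. The number of chemokine genes past the test stayed at 4 or 5 at both doses against DMSO and at 4 between doses in every alternative run, the fifth being CX3CL1 or CCL20. Leaving out each library in turn gave log2 fold changes at 150 µg/ml against DMSO of 2.89 to 3.18 for CXCL8, 3.14 to 3.44 for CXCL2, 2.10 to 2.47 for CXCL3 and 0.36 to 0.58 for CXCL1. Between doses CXCL1 ran from -0.59 to -0.53. With the replicate number as a block, 4, 4 and 4 genes passed in the 3 comparisons. Same-numbered libraries did not deviate together (correlations 0.059, 0.041 and 0.004), so the numbers were not taken to pair them. Among list genes, 562 of 594 values kept their call and 32 lost it, for CXCL16, CCR10, CCRL2, ZFP36, ESR1 and ERBB2. DESeq2 values without an adjusted p are not counted. The count of all genes that differed between doses was 3433, against 1990 without replicate 1 at 75 µg/ml, 1507 without replicate 1 at 150 µg/ml and 1883 at an adjusted p under 0.01. Scaling to total counts in place of TMM put the all-gene median log2 fold change at 0.14 at 75 µg/ml and 0.22 at 150 µg/ml, against 0.01 and 0.03. Depth limits CX3CL1, CCL20 and the genes without reads.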
